A study of Oryza sativa with 2 samples.

Results

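The Aux/IAA genes IAA1, IAA2, IAA3, IAA5 and IAA6 were followed in rice leaves, each through 1 named probe set of the Affymetrix rice GeneChip, as 5 of the 17905 genes with a probe set in the platform's annotation. All 5 lie in order of their numbers along the same chromosome in the gene table used to name them. The study set the indica variety 9311 (control) against the transgenic line LRK1 060615, which is 9311 carrying the LRK1 transgene. LRK1 codes for a receptor-like kinase of rice with leucine-rich repeats, and since 0 genes with a probe set bear a name containing LRK, its own signal was not read here. Both groups were untreated plants aged 6 weeks from a greenhouse at 28 °C with 14 h of light and 10 h of dark, and leaves of 10 plants per genotype were taken. The promoter that drives the transgene is not given in the sources used here, and the labels name 1 transgenic line. Each genotype had 1 array, so no difference has a replicate check, no test was run and no p-value is given. The number of arrays limits the precision, and every comparison is between these arrays, not between the genotypes in general.

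Aux/IAA proteins are short-lived nuclear repressors of auxin signalling. They bind auxin response factors, which sit on the promoters of auxin-responsive genes, and keep those genes silent together with TOPLESS-type corepressors. When auxin is present, receptors of the TIR1 and AFB kind bind the Aux/IAA protein and mark it for degradation, which frees the response factors. Many Aux/IAA genes are themselves transcribed in response to auxin, so the family is both a brake on the pathway and one of its readouts. In leaves, auxin signalling takes part in growth, vein formation and the angle at which the blade stands.

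The values were log2 MAS5 signals, 1 per probe set and array. A floor was set at the median log2 signal of the 57258 probe sets other than array controls, 5.40, which is 42.1 on the linear scale. A probe set or gene with both signals at or above that floor is said here to be measured on both arrays. It was called higher or lower on the transgenic array if it was so measured and its signals were 2-fold or more apart. Log2 ratios are given as LRK1 transgenic over control throughout. The 69 bacterial spike control probe sets, which do not come from the plant, had a median log2 ratio of 0.34, and the 24426 probe sets measured on both arrays had a median of 0.08. Taking the spikes as the reference lowers every log2 ratio by 0.34, and that value is given where it bears on a gene. All 4 leaf markers with a probe set reached the floor on both arrays, with RBCS of the small Rubisco subunit at log2 signals of 15.15 and 15.62. PORA, a protochlorophyllide oxidoreductase gene, was the only one of the 4 called, with log2 signals of 8.57 and 10.18 and a log2 ratio of 1.62. Of the other markers, 2 of 3 of the root, 2 of 3 of the seed, 1 of 3 of the flower and none of 2 of the shoot apex reached it. The shoot apex gene OSH1 was listed at 0 on the control array. Summed linear signals of the leaf list were 146285 and 205868 on the control and transgenic arrays, those of the root list 1400 and 1509, those of the seed list 2324 and 3307, those of the flower list 58.2 and 82.7, and those of the shoot apex list 2.46 and 37.4. Their part in the Aux/IAA signals was not tested. In leaf RNA, fewer cells of a type and less RNA per cell cannot be told apart.

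All 5 genes reached the floor on both arrays, and their log2 ratios ran from -0.26 to 1.86. IAA2, IAA3 and IAA5 stood higher on the transgenic array, IAA2 by the widest margin of these 5, while IAA1 and IAA6 were within 1.5-fold of the control. The 2-fold rule was passed by 2 of the 5, IAA2 and IAA5, against 8.36% of the probe sets measured on both arrays, and by none in the lower direction, against 9.95%. As counts over the array these were 2042 higher and 2430 lower, which became 1210 and 3429 with centring on the median ratio of all probe sets and 967 and 4043 with the spikes as reference. The median log2 ratio of the 5 genes was 0.95, beside 0.08 over the same probe sets of the array. With the spikes as reference it was 0.61. At a 1.5-fold size rule IAA3 joined, for 3 of 5, against 22.1% of the probe sets.

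**Figure D1:**
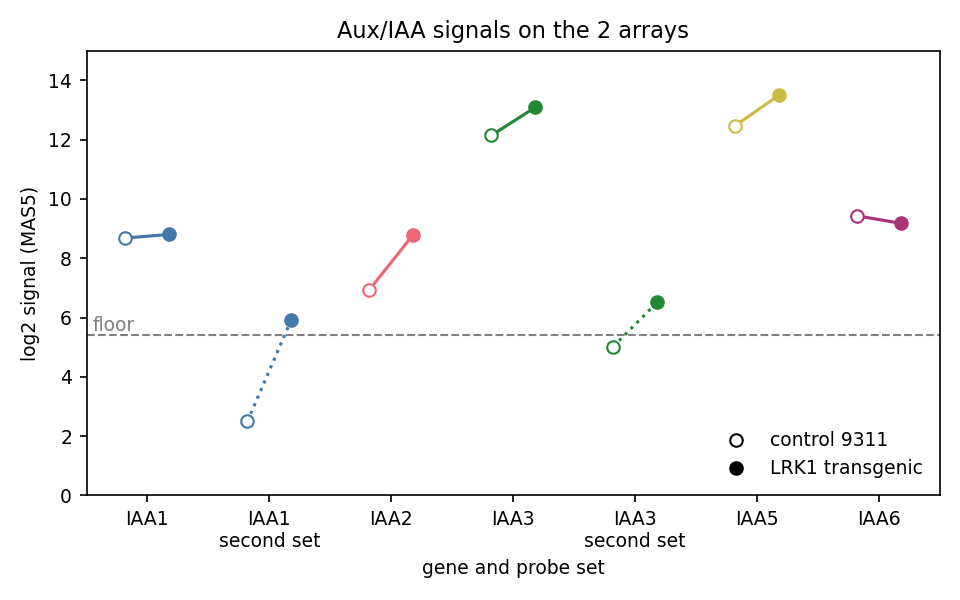
Log2 MAS5 signal of each Aux/IAA gene on the control 9311 array (open circles) and the LRK1 transgenic array (filled circles), joined by a line for each probe set, with the second probe sets of IAA1 and IAA3 dotted and the floor of 5.40 dashed. IAA2 has the steepest line among the named probe sets, IAA6 slopes down slightly, and both second probe sets start below the floor. Heights of different probe sets are not comparable.

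IAA2 (LOC4326775) had log2 signals of 6.94 in the control and 8.79 in the transgenic leaves, linear signals of 123 and 444. The transgenic array was thus higher by a log2 ratio of 1.86, or 3.62-fold. Only 0.917% of the probe sets measured on both arrays had a ratio as high or higher. Its control signal was 2.91 times the floor, in the dimmest range, from the floor to a mean log2 signal of 8, where 10.3% of probe sets passed the 2-fold rule upwards. IAA2 was past 2-fold under each of the 4 other scalings between arrays, with log2 ratios from 1.52 with the spikes as reference to 1.88 after quantile normalization.

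IAA5 (LOC4325515) went from a log2 signal of 12.47 on the control array to 13.50 on the transgenic array, linear signals of 5678 and 11586. Its log2 ratio of 1.03, 2.04-fold, lay just inside the 2-fold rule. Under all 4 other scalings it fell short, with log2 ratios from 0.69 with the spikes as reference to 0.98 after quantile normalization. Among probe sets with a mean log2 signal of 12 and over, 6.38% were at least 2-fold higher, and their median log2 ratio was 0.24.

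IAA3 (LOC4325890) had log2 signals of 12.14 and 13.09 on the control and transgenic arrays, linear signals of 4519 and 8708. Its log2 ratio of 0.95, 1.93-fold, lay just outside the rule. IAA3 and IAA5 were therefore called differently although their log2 ratios differed by 0.08. For comparison, the ratios of a pair of probe sets of the same gene, each measured on both arrays, differed by a median of 0.32 over 1951 genes. A ratio as high as that of IAA3 or higher was found in 9.55% of the probe sets measured on both arrays, and one as high as that of IAA5 in 7.77%.

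IAA1 (LOC4323871) had log2 signals of 8.68 in the control and 8.80 in the transgenic leaves, linear signals of 411 and 447. Overexpression of this gene in rice is known to change auxin and brassinosteroid responses. Its log2 ratio of 0.12 was close to the array median of 0.08, and its direction depended on the scaling, turning to -0.11 when centred on the median ratio of all probe sets and -0.22 with the spikes as reference.

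IAA6 (LOC4326541), known in rice for roles in drought tolerance and tiller outgrowth, was the only one of the 5 with a lower signal on the transgenic array as deposited. Its log2 signals were 9.43 in the control and 9.18 in the transgenic leaves, linear signals of 690.5 and 579. The log2 ratio of -0.26, 1.19-fold lower, stayed short of 2-fold under all 4 other scalings, which gave -0.18 to -0.59. A ratio that low or lower was found in 32.3% of the probe sets measured on both arrays. The log2 ratios of IAA2 and IAA6 lay 2.11 apart, a distance that no constant shift between the arrays alters.

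**Figure D2:**
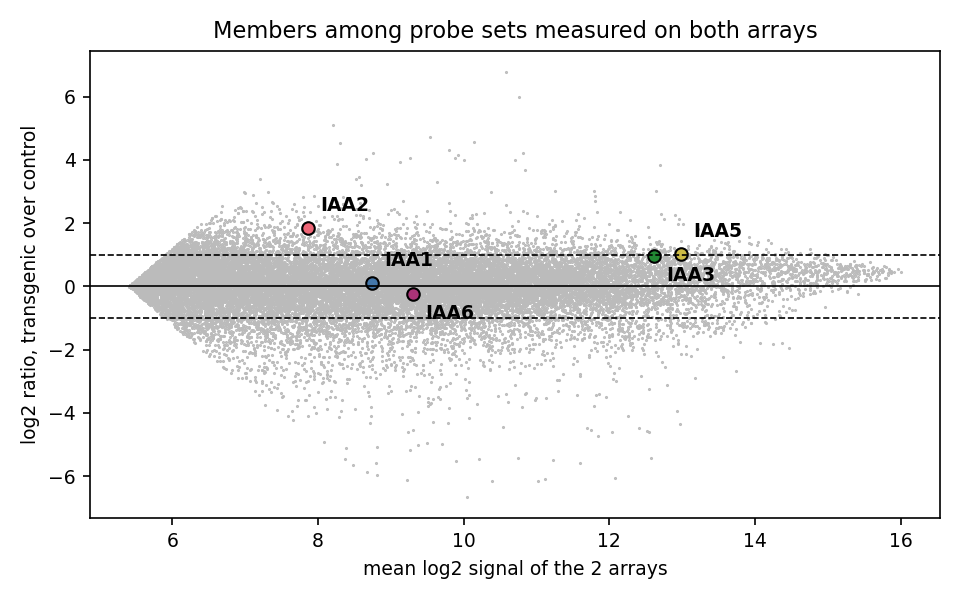
Log2 ratio of LRK1 transgenic over control against the mean log2 signal of both arrays, for the 24426 probe sets measured on both arrays (grey) and the 5 Aux/IAA genes (coloured). Dashed lines mark 2-fold in each direction. IAA2 lies near the upper edge of the cloud, IAA3 and IAA5 lie at the upper dashed line among bright probe sets, and IAA1 and IAA6 lie within it.

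Separate probe sets of a gene read the same RNA and are not replicates of the genotype. IAA2, IAA5 and IAA6 had 1 probe set each, and all 7 probe sets of the 5 genes are of the kind whose names do not mark shared targets. The second probe set of IAA3 had log2 signals of 5.02 and 6.51, the first under the floor and the second 2.16 times it. It was called above the floor on the transgenic array only, the same direction as the bright probe set. The second probe set of IAA1 disagreed in size with the first. It had a log2 signal of 2.49 on the control array, far below the floor, and 5.93 on the transgenic array, where it passed the floor but not by 2-fold, so it was not called. Its log2 ratio exceeded that of the named IAA1 probe set by 3.31. When the probe sets of a gene were combined by their median ratio, IAA1 stood at 1.78 and IAA3 at 1.22, and 4 of the 5 genes were past 2-fold. That count rests on probe sets that missed the floor in the control.

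The gene table named 28 Aux/IAA genes, of which 26 had a probe set; IAA11 and IAA29 had none in the annotation used. Measured on both arrays were 15, the 5 genes above and 10 others, while 4 reached the floor on 1 array and 7 on neither. Of the 10 others, 9 had a positive log2 ratio, with a median of 0.61 and a range from -0.88 to 1.20. Across the 15 genes 13 ratios were positive, and 4 were at least 2-fold higher and none 2-fold lower. Among the 13526 genes measured on both arrays, 51.1% had a positive ratio, 6.82% were called higher and 11.1% lower, each through its brightest probe set. With the spikes as reference, 11 of the 15 had positive ratios against 31.5% of the genes. Only IAA2 was then 2-fold higher, against 2.91%, and only IAA15 was 2-fold lower, against 19.1%. These counts describe the arrays and test nothing.

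**Figure D3:**
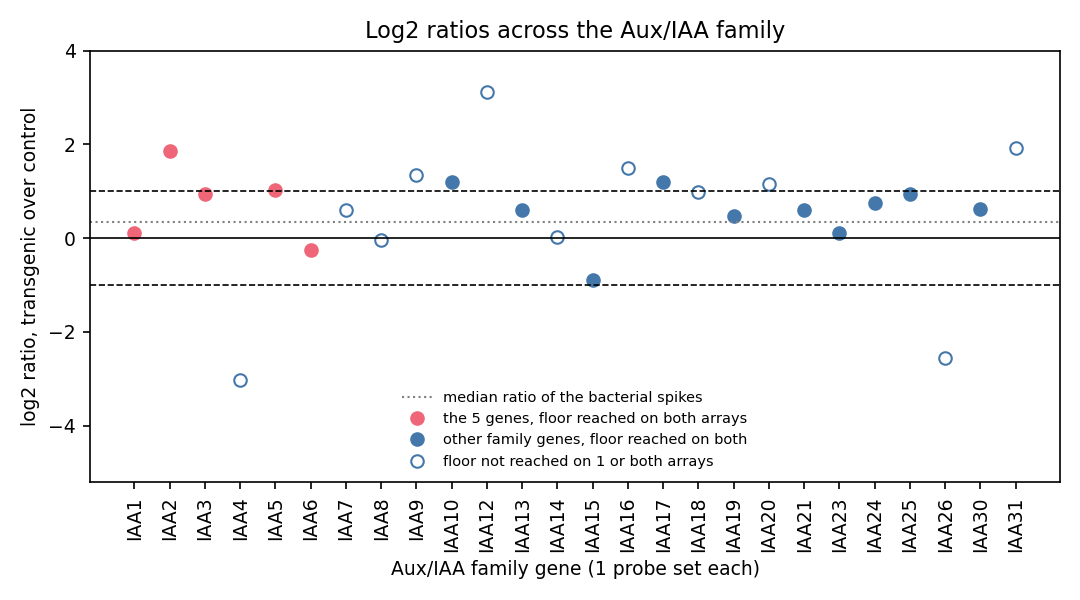
Log2 ratio of LRK1 transgenic over control for the 26 Aux/IAA genes with a probe set, in order of gene number. Red points are the 5 genes IAA1, IAA2, IAA3, IAA5 and IAA6, blue points the rest, and open points genes that missed the floor on 1 or both arrays. Dashed lines mark 2-fold and the dotted line the median ratio of the bacterial spikes, 0.34. Among filled points, 13 of 15 lie above 0 and 11 of 15 above the dotted line, and IAA6 and IAA15 lie below 0.

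Among the other family genes, IAA17 (LOC4338160) went from a log2 signal of 12.98 in the control to 14.18 in the transgenic leaves, a log2 ratio of 1.20. Its probe set is open to several transcripts, so the signal may not come from IAA17 alone. IAA10 (LOC4331149), a repressor that a rice dwarf virus protein is known to bind and stabilise, went from 10.17 to 11.36, a log2 ratio also of 1.20. Both passed 2-fold as deposited and fell short of it with the spikes as reference. IAA15 (LOC4337971) was the only one of these 10 with a lower transgenic signal as deposited, with log2 signals of 11.45 in the control and 10.57 in the transgenic leaves and a log2 ratio of -0.88. IAA25 (LOC4344471), the brightest uncalled gene of these others, went from 11.34 to 12.27, a log2 ratio of 0.93, which is close to those of IAA3 and IAA5.

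As deposited, the remaining 6 of these others lay between no difference and 2-fold, and with the spikes as reference IAA23 turned to -0.22. IAA13 (LOC4334069), a gain-of-function allele of which reduces lateral root formation, had a log2 ratio of 0.60. IAA23 (LOC4341432), known for its part in keeping the root quiescent centre, had a log2 ratio of 0.11 on a probe set open to several transcripts. A dimmer probe set of IAA23, measured on both arrays and not marked as shared, had the opposite sign, with log2 signals of 6.01 and 5.73 and a log2 ratio of -0.28. Read through it, 8 of the 10 others and 12 of the 15 genes would have positive ratios. The ratios of IAA19, IAA21, IAA24 and IAA30 ran from 0.47 to 0.75. IAA4, whose number lies between those of IAA3 and IAA5, had 3 probe sets. The brightest had log2 signals of 5.71 in the control and 2.69 in the transgenic leaves. It thus reached the floor on the control array only, by less than 2-fold, and was not called. The others were below the floor on both arrays and differed in sign, with log2 ratios of 0.72 and -3.37. IAA12 and IAA31 reached the floor on the transgenic array only, at 5.56 and 6.11, and were not called either, nor was IAA7 at 5.42.

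IAA2 had the highest of the 5 log2 ratios, followed by IAA5, IAA3, IAA1 and IAA6, as deposited, after quantile normalization and after loess. Both centrings take a constant off all ratios, so under them neither this order nor a gene's place above or below the median of all genes can change. IAA2 lay 0.83 above IAA5, and IAA3 lay 0.83 above IAA1, so the narrowest gap was that between IAA5 and IAA3. The median of all 13526 genes moved from 0.02 as deposited to 0.02 after quantile normalization, -0.03 after loess, -0.21 with centring on the median ratio of all probe sets and -0.32 with the spikes as reference. The median of the 5 genes was 0.95 as deposited and 0.92, 0.83, 0.72 and 0.61 under the other settings in that order. IAA6 lay below the median of all genes as deposited, after quantile normalization and after loess.

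**Figure D4:**
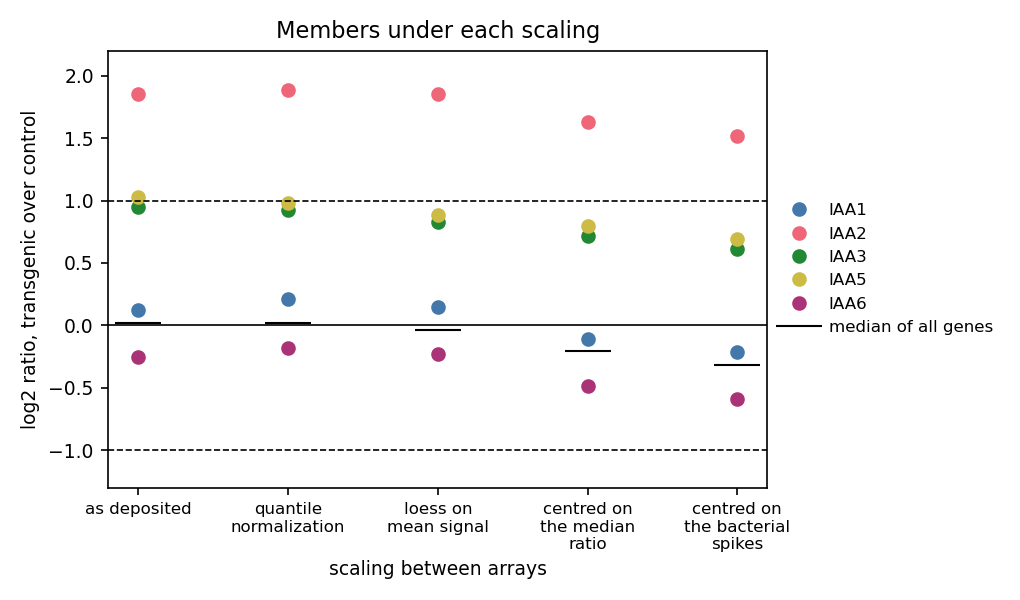
Log2 ratio of LRK1 transgenic over control of each of the 5 Aux/IAA genes under 5 scalings between the arrays, with the median of all genes measured on both arrays as a short black bar and 2-fold as dashed lines. IAA2 stays above 2-fold throughout, IAA5 is above it only as deposited, and IAA1 changes sign under the last 2 scalings on the right.

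The genes that act with Aux/IAA proteins were read through lists found by symbol, which hold only part of each kind. No gene was found under a TIR1 or AFB receptor name or as an influx carrier. Of the auxin response factors, 17 had a probe set and 15 reached the floor on both arrays. Which of these transcription factors Aux/IAA proteins hold back was not read here. All 15 had positive log2 ratios as deposited, with a median of 0.56, and 4 were at least 2-fold higher and none lower. Among all genes measured on both arrays, 51.1% were positive, 6.82% higher and 11.1% lower. The response factor ARF14 reached the floor in the control only, with log2 signals of 6.21 and 4.39 on the control and transgenic arrays. ARF13 missed it on both, at 5.25 and 2.96. Both genes thus had a lower transgenic signal, and neither was called. With the spikes as reference 10 of the 15 were positive, against 31.5% of the genes, with a median of 0.22 and 2 at least 2-fold higher, against 2.91%. With centring on the median ratio of all probe sets 13 were positive, against 37.5%, and 3 at least 2-fold higher, against 3.76%. The highest were ARF1 (LOC4327785, also listed as ARF16), with log2 signals of 6.11 and 7.53 and a log2 ratio of 1.42, and ARF12 (LOC4337363), with 7.01 and 8.43 and a log2 ratio of 1.42. The probe set of ARF12 is open to several transcripts, which may be of the same gene. The TOPLESS-related corepressor genes TPR2 and TPR3 had log2 ratios of 0.79, on a probe set open to several transcripts, and 0.24. Neither passed 2-fold, and with the spikes as reference TPR3 turned to -0.10. ASP1, another gene of this kind, was below the floor.

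Genes that handle auxin itself gave other values. GH3 enzymes join auxin or other acids to amino acids, and their genes are classic auxin-responsive transcripts. Of 9 with a probe set, 4 reached the floor on both arrays, 2 of them passed 2-fold downwards and none upwards, against 11.1% and 6.82% of all genes measured on both arrays, with a median log2 ratio of -0.76. The same counts were found under each of the 4 other scalings, where the share of genes passing 2-fold downwards ran from 11.0% after quantile normalization to 19.1% with the spikes as reference. GH3.2 (LOC4326893) went from a log2 signal of 10.31 to 8.36, a log2 ratio of -1.95, and GH3-8 (LOC4343785) from 8.60 to 7.27, a log2 ratio of -1.32. SAUR39 (LOC9271092), an early auxin-responsive gene, had log2 signals of 7.47 and 6.49 and a log2 ratio of -0.97, just short of 2-fold as deposited and past it under each of the 4 other scalings, at -1.02 to -1.31. Of 2 auxin efflux carrier genes at the floor on both arrays, PIN5A (LOC4324368) had a log2 ratio of 1.15, which fell short of 2-fold with either centring. PIN3A (LOC4326565) had one of -2.17, on a probe set open to several transcripts. Its log2 signals were 7.82 in the control and 5.65 in the transgenic leaves, the latter only 1.19 times the floor. FIB (LOC4325198), a tryptophan aminotransferase gene of auxin synthesis, was level as deposited at log2 signals of 8.13 on both arrays, and SGT1 (LOC4326682), a cochaperone gene of ubiquitin ligase complexes, was level too, with a log2 ratio of -0.01. With the spikes as reference these stood at -0.34 and -0.35. Over the 26 genes of these lists measured on both arrays, 5 were higher and 3 lower, with a median log2 ratio of 0.27. Among all genes measured on both arrays, 6.82% were higher and 11.1% lower. With the spikes as reference 2 of the 26 were higher and 4 lower, against 2.91% and 19.1%, and the median turned to -0.06. The median over all genes measured on both arrays was then -0.32. With centring on the median ratio of all probe sets 3 of the 26 were higher and 4 lower, against 3.76% and 16%, with a median of 0.04.

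**Figure D5:**
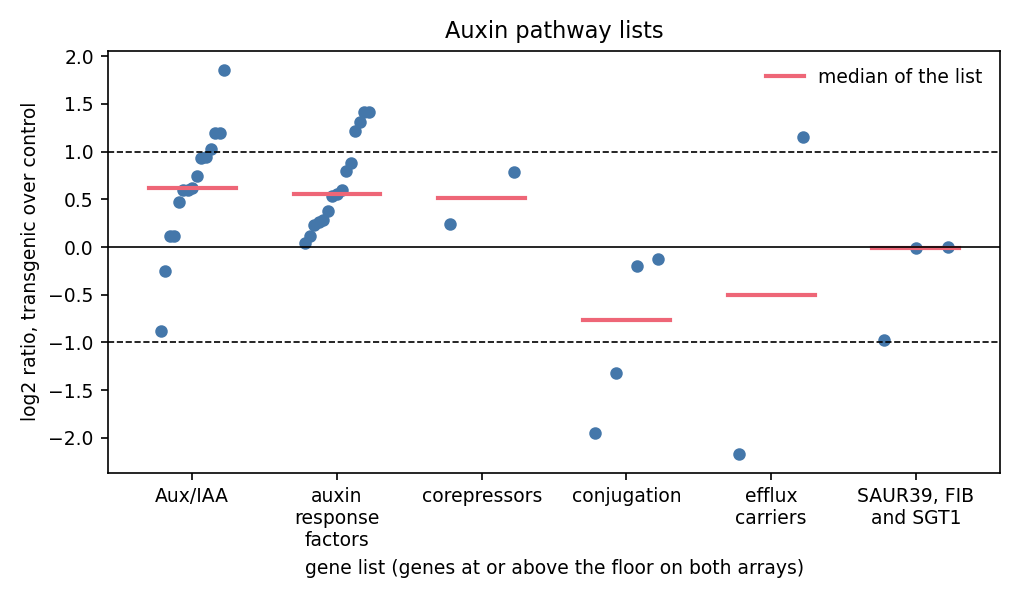
Log2 ratio of LRK1 transgenic over control of each gene measured on both arrays, by list, with points in order of their ratio, the median of each list as a red bar and 2-fold as dashed lines. The Aux/IAA and auxin response factor lists, 15 genes each, lie mostly above 0 as deposited, with medians of 0.61 and 0.56 (0.28 and 0.22 with the spikes as reference), and the 4 genes of conjugation all lie below 0.

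The genes of these lists whose log2 ratio lay nearest to the median of the 5 Aux/IAA genes, 0.95, were ARF15, ARF3 and TPR2. They differed from it by 0.07, 0.15 and 0.15, TPR2 on a probe set open to several transcripts. With 1 array per genotype this likeness is a single difference over 2 arrays, and it says only that the ratios were of similar size.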

How the data were processed

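Leaf RNA of 1 control and 1 LRK1 transgenic sample, 10 plants each, was hybridised to the Affymetrix rice GeneChip after biotin labelling with a 3' IVT kit, per the labels' protocols. The authors deposited a log2 signal for each probe set and array, and the submitters' processing notes name MAS5. The sources used here give neither its version nor its scaling target, detection calls were not used, and the scale was taken from the range of the values, 0 to 16.24. The kit primes at the poly-A tail, which favours the 3' part of transcripts, and MAS5 can scale arrays to 1 level, which would hide a change shared by most transcripts. The array medians were 5.21 and 5.56.

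The 123 array controls were set apart. Groups came from the genotype labels. Of the 57258 other probe sets, 22436 had 1 gene in the platform annotation, 95 several and 34727 none in the table used. Names came from a RefSeq gene table (assembly ASM3414082v1), and where a gene had several family numbers the one not shared with another gene was used. Outside the 5 genes, whose probe sets were given, a gene was read through its probe set of highest mean signal. The 5 genes and all lists were chosen with earlier results of these data known. Named genes were the 5 with all probe sets, family genes past 2-fold and the brightest that was not, and up to 2 per direction in each list, or the brightest. IAA4, IAA7, IAA12, IAA13, IAA15, IAA19, IAA21, IAA23, IAA24, IAA30 and IAA31 were named besides. In the lists ARF13, ARF14, TPR3, ASP1 and the genes nearest in ratio were also named. LAX1 and LAX2, which bear the name of influx carriers here but are panicle branching genes, were left out. Sequences of the genes were not used here. The call rule was tested on simulated data, with 4-fold changes in probe sets well above the floor. That test does not bear on calls near 2-fold or near the floor. Alternatives were 4 other scalings (quantile, loess with a span of 0.3, and centring on all probe sets or on the bacterial spikes), floors at percentiles 25 and 75, size rules of 1.5-fold and 4-fold, log2(signal + 16), the median over a gene's probe sets, and leaving out probe sets open to several transcripts, by the endings of their names. Python 3.11.15, pandas 2.3.3, numpy 2.4.6 and statsmodels 0.14.6 were used.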

Additional observations from a re-analysis of the deposited data

How the results depend on the processing

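No paired analysis was possible because each genotype had 1 array, and for the same reason no sample could be left out. Of 11 alternatives, IAA6 stayed negative and uncalled in all 11, at -0.59 to -0.18. IAA2 kept its call in 9, at 1.52 to 1.88, and lost it at the 75th percentile floor, which its control signal missed, and at the 4-fold rule, with an unaltered ratio of 1.86. IAA5 lost its call after quantile normalization (0.98), loess (0.89), centring on the median ratio (0.80), centring on the spikes (0.69) and at the 4-fold rule (1.03 as deposited). IAA1 reversed with centring on the median ratio (-0.11) and on the spikes (-0.22), and passed 2-fold with the median over its probe sets (1.78). IAA3 passed at the 1.5-fold rule (0.95) and with the median over its probe sets (1.22), as did the median of the 5 genes, at the same 0.95 and 1.22.

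The count of the 5 genes past the size rule, 2 as reported, was 1 under each of the 4 other scalings and at the 75th percentile floor, 0 at the 4-fold rule and 4 with the median over probe sets. The count of other family genes higher, 2 as reported, was 0 with either centring and at the 4-fold rule, 4 at the 25th percentile floor and with the median over probe sets, 7 at the 1.5-fold rule and 1 without probe sets open to several transcripts. The count lower, 0 as reported, was 1 with either centring, at the 1.5-fold rule and with the median over probe sets. The genes that the median over probe sets added in either direction were ones whose brightest probe set missed the floor on 1 or both arrays. As reported, 10 of these others were measured on both arrays. Of all genes so measured, 6.82% were 2-fold higher and 11.1% lower. These shares were 6.7% and 11% after quantile normalization, and 5.9% and 11.9% after loess. With centring on the median ratio they were 3.76% and 16%, and with the spikes 2.91% and 19.1%. At the 1.5-fold rule 22.1% of the probe sets measured on both arrays were higher. Shares of genes at other settings are not given.

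Over the array, 2042 probe sets were higher and 2430 lower. These counts were 1210 and 3429 with centring on the median ratio, 967 and 4043 with centring on the spikes, 5774 and 4577 at the 25th percentile floor, 779 and 1062 at the 75th, 5394 and 4692 at the 1.5-fold rule, and 166 and 492 at the 4-fold rule. The fewer calls at stricter rules and higher floors follow from their construction.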
